A study of Mus musculus with 14 samples.

Results

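Chromatin of ATDC5, a chondrogenic mouse line derived from a teratocarcinoma, was examined at the regions where trimethylation of histone H3 at lysine 4 (H3K4me3) lay at the ends of noncoding genes and of no protein-coding gene. A region was the intersection of a peak of the first and a peak of the second H3K4me3 library of day 3, on the assembled chromosomes of GRCm38. It was a member when an end of a RefSeq gene of any biotype other than protein_coding lay within 1 kb and every end of a protein-coding gene lay over 1 kb away. This gave 1517 members of 21011 day 3 regions, at 1542 distinct noncoding genes. Of the other regions, 12526 lay within 1 kb of a protein-coding end and 6968 lay over 1 kb from every gene end. The members were chosen by the day 3 peaks, so their presence and enrichment on day 3 are given as a description only.

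The 14 libraries comprised H3K4me3 on day 0 (n = 2), day 3 (n = 2) and day 10 (n = 2), RUNX2 on day 0 (n = 2), day 3 (n = 2) and day 10 (n = 2), and 2 input libraries, which were not analysed here. Per the labels, cells spotted as dense droplets were differentiated with β-glycerophosphate and ascorbate-2-phosphate, and all groups share this line and protocol, with day 0 as the starting point. The cell line is ATDC5 in every label, but a cell type field gives each sample its own teratocarcinoma number, in rising order, and was not used to group them. Whether the 2 libraries of a group were grown separately is not in the labels, and p-values then measure only a spread that may be technical. The model is limited to a tumour-derived line.

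H3K4me3 is deposited around the starts of active and poised genes, whether or not they encode protein. RNA polymerase II makes lncRNAs and microRNA precursors and most of the small nuclear RNAs of the spliceosome, whereas RNA polymerase III makes tRNAs, 5S rRNA, 7SK RNA and Y RNAs. A microRNA is cut from a longer transcript, so the start of its host can lie far from the microRNA itself. RUNX2, of the runt family of DNA-binding factors, is needed to form osteoblasts and to mature chondrocytes, and miR-140 is the best known microRNA of cartilage.

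RefSeq mature sequences (GRCm38.p6) were found for 58 of the 61 microRNA genes at members, in all 96 sequences with 92 distinct seeds. The following belong to microRNAs whose regions are described below. Capitals mark the seed, bases 2 to 8 from the 5′ end. The pairs are those in which different microRNA names at members share a seed.
miR-140-3p: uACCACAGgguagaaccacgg
miR-199a-3p: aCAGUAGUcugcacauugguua
miR-199b-3p: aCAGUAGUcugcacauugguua
miR-214-3p: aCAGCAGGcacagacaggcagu
miR-210-3p: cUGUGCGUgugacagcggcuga
miR-193a-3p: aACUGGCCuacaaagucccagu
miR-193b-3p: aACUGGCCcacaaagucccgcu
miR-132-3p: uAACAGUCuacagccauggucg
miR-212-3p: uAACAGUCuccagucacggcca
miR-34b-3p: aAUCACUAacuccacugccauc
miR-34c-3p: aAUCACUAaccacacagccagg
The seed CAGUAGU was shared by miR-199a-3p and miR-199b-3p, ACUGGCC by miR-193a-3p and miR-193b-3p, AACAGUC by miR-132-3p and miR-212-3p, and AUCACUA by miR-34b-3p and miR-34c-3p.

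Promoters of genes at 8 members are shown, so that members present in every list can be read beside members missing from some. A printed start lies within 1 kb of its member, but the window need not lie in it. The windows of Mir22hg and Six3os1 lie outside the members at these genes, and the Dnm3os start lies between members. Dancr, Snhg5, Mir22hg, Dnm3os and Gm38632 had H3K4me3 in all 4 lists of days 0 and 10. They also had RUNX2 in both libraries of day 3. For Dancr and Dnm3os this holds at the widest region, and other regions of these genes lack some of these peaks. Gm7628 had no day 0 peak and RUNX2 in 1 library, Gm39782 no day 0 peak and no RUNX2, and Six3os1 a day 0 peak in 1 library and no RUNX2. Each is the RefSeq window on GRCm38.p6 from 250 bases before to 50 bases after a start, read 5′ to 3′ on the gene's strand. Capitals mark the letters TGTGGT and TGCGGT, the core recognised by RUNX proteins, or their reverse complements ACCACA and ACCGCA.
Dancr (chr5:74092810-74093109, plus strand): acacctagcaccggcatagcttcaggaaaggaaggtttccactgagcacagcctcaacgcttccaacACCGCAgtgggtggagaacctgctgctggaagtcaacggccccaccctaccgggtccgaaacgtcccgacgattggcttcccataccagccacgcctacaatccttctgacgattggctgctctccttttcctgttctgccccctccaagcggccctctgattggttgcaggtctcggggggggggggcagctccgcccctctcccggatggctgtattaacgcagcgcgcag
Snhg5 (chr9:88522848-88523147, minus strand): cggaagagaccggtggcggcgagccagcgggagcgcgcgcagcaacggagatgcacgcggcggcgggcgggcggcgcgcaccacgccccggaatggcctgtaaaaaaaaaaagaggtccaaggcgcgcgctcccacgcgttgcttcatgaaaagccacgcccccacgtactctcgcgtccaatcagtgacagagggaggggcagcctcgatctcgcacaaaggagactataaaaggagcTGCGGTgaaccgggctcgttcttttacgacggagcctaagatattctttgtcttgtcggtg
Mir22hg (chr11:75461289-75461588, plus strand): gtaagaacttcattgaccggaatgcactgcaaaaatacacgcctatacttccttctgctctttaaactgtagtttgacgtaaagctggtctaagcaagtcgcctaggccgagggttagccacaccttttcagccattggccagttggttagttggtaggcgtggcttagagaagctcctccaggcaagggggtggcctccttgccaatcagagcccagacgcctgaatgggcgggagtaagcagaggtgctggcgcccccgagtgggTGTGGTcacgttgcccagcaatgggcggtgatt
Dnm3os (chr1:162217373-162217672, plus strand): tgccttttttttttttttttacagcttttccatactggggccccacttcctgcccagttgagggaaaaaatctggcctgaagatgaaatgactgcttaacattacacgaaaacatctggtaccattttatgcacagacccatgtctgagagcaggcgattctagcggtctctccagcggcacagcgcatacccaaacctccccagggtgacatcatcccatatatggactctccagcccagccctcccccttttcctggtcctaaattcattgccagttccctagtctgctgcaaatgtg
Gm38632 (chr4:120033344-120033643, minus strand): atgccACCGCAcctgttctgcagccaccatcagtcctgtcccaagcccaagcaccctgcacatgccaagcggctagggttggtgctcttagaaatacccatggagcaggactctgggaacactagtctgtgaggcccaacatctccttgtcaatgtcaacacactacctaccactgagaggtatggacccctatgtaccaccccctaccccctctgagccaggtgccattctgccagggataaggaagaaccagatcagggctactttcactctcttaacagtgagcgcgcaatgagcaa
Gm7628 (chr9:109097747-109098046, minus strand): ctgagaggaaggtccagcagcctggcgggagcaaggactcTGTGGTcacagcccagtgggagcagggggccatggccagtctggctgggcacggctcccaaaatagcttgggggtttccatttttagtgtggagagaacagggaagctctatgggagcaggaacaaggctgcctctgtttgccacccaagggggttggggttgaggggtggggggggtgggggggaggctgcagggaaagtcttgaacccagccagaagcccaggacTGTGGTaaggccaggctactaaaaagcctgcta
Gm39782 (chr2:30723734-30724033, minus strand): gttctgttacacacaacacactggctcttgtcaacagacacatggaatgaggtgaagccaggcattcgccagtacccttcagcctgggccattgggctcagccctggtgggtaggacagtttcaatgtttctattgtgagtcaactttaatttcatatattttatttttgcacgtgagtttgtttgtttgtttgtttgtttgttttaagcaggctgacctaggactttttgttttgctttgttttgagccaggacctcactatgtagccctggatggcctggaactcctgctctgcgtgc
Six3os1 (chr17:85618347-85618646, minus strand): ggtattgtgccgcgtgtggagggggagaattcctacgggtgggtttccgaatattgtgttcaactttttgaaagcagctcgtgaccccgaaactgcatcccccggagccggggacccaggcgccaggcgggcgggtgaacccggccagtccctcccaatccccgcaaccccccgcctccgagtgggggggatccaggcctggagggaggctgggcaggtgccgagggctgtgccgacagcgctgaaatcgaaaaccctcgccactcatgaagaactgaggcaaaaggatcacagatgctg
A match to these letters describes the sequence only and was not tested as a site.

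The H3K4me3 lists held 13765 to 29022 peaks, with replicate 1 the shorter list on days 0 and 10. For RUNX2, day 3 had 19319 and 16859 peaks, whereas days 0 and 10 had 97 to 108 a list. Of 10 chondrocyte markers, among them Sox9, Col2a1 and Acan, 5 and 7 had H3K4me3 at an end on day 0 and all 10 in each library of days 3 and 10. Of 10 markers of other cell types, 1 to 4 had it in a list. The neuronal gene Tubb3 had it in all 6 lists, the myeloid gene Spi1 and the epithelial gene Epcam in 5 and the epithelial gene Cdh1 in 2, and Myod1, Myog, Rbfox3, Ptprc, Pou5f1 and Nanog in none. The numbers of reads are unknown here, so a missing peak means that none was called at that library's depth.

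Most members had H3K4me3 on other days as well. On day 0, 715 members (47.1%) had a peak in replicate 1 and 1061 (69.9%) in replicate 2. On day 10, 938 (61.8%) had one in replicate 1 and 1426 (94.0%) in replicate 2. Replicate 2 was higher on each day, and the ranges of day 0 and day 10 overlapped. The mean share was 58.5% ± 16.1 (SD, n = 2) on day 0 and 77.9% ± 22.7 (SD, n = 2) on day 10, a difference of 19.4 percentage points. A two-sided exact permutation test over libraries gave p = 0.667 (adjusted p = 0.667 over 3 tests), and its smallest possible p with 2 against 2 libraries is 0.333. Without replicate 2 of day 10 the difference was 3.30 points.

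In both day 0 libraries, 693 members (45.7%, 95% Clopper-Pearson interval 43.2 to 48.2%) had a peak, beside 58.8% of all day 3 regions. In neither, 434 (28.6%) had one, beside 22.2%. In both day 10 libraries 938 (61.8%) had a peak, beside 70.3%, and in neither 91 did, beside 4.98%. In all 4 lists of days 0 and 10, 652 members (43.0%) had a peak, beside 57.5%. At protein-coding ends the share with both day 0 libraries was 79.0%, and over 1 kb from every end it was 25.5%, so the members lay between these classes in each list. The intervals count regions as if independent and hold counting error alone.

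**Figure D1:**
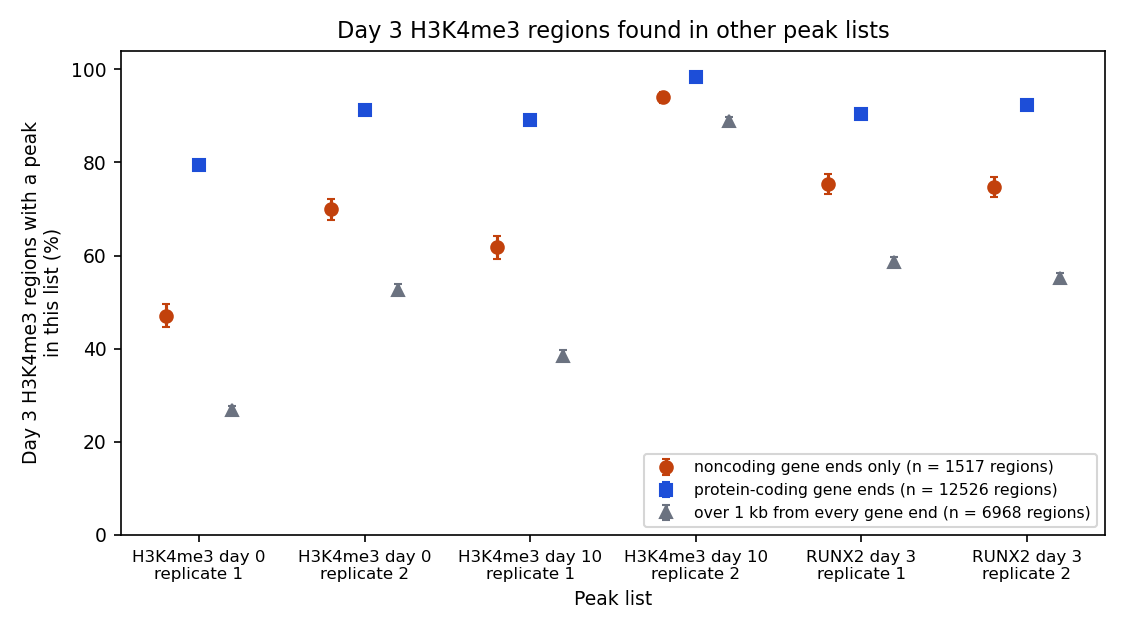
Share of day 3 H3K4me3 regions with a peak in each other list (y axis, percent; x axis, list), for 3 classes of region, with exact 95% intervals. The members lie between 47.1% and 94.0% in the H3K4me3 lists, below protein-coding ends and above regions over 1 kb from every end in all 6 lists.

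Members were narrower and less enriched on day 3 than regions at protein-coding ends. Their median width was 861 bp (range 5 to 14770 bp), against 1409.5 bp at protein-coding ends and 485 bp over 1 kb from every end. A region's fold enrichment was the authors' value for the strongest whole peak overlapping it in a list. A short region can therefore carry the fold of a wider peak: the 313 and 1629 bp Dancr regions share 23.2 in day 3 replicate 1. The fold enrichment had a median of 16.8 and 7.54 in the 2 day 3 lists, against 22.5 and 9.38 at protein-coding ends. Regions were therefore set side by side within quartiles of the mean day 3 fold rank. In the strongest quartile 89.3% of 289 members had H3K4me3 in both day 0 libraries, against 98.3% at protein-coding ends and 91.8% over 1 kb from every end. In the next it was 77.4% of 323 members against 91.5% and 68.5%, in the third 37.1% of 418 against 61.9% and 26.2%, and in the weakest 6.16% of 487 against 6.44% and 3.90%. Both-library presence on day 0 thus lay below that of protein-coding ends in each quartile, and the 2 were closest in the weakest.

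**Figure D2:**
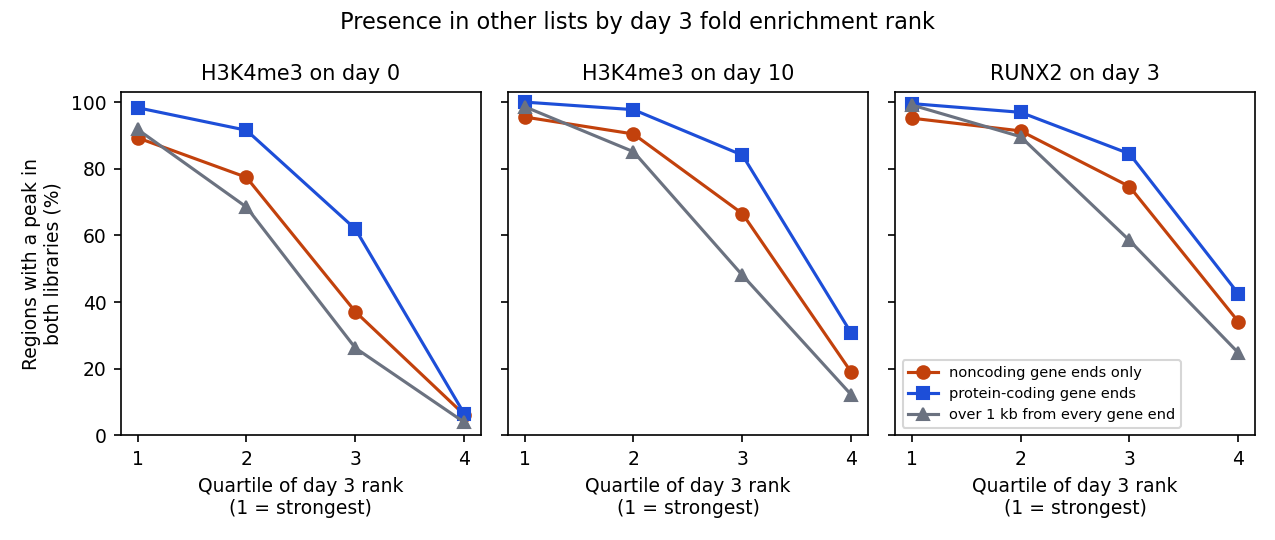
Share of regions with a peak in both libraries of H3K4me3 on day 0, H3K4me3 on day 10 and RUNX2 on day 3 (y axis, percent) by quartile of the day 3 fold enrichment rank over all 21011 regions (x axis, 1 strongest). For members, day 0 presence goes from 89.3% in the strongest quartile to 6.16% in the weakest.

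By the nearest noncoding gene, 1055 members (69.5%) were at lncRNA genes, 126 at pseudogenes, 119 at tRNA genes, 61 at transcribed pseudogenes, 48 at microRNA genes, 47 at rRNA genes and 40 at snRNA genes. Another 6 each were at misc_RNA and snoRNA genes. The share of a biotype's RefSeq genes that lay at a member was 76.2% for rRNA (48 of 63) and 47.5% for tRNA (194 of 408). It was 7.60% for lncRNA (967 of 12727), 4.97% for microRNA (61 of 1228) and 1.31% for pseudogenes (130 of 9944), beside 5.50% of all 28056 noncoding genes. Another 1854 noncoding genes lay only at day 3 regions that were also at a protein-coding end, and 24660 lay at no day 3 region.

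The biotypes differed in how many members had a peak on day 0. Both libraries had one at 69.7% of tRNA members, 54.2% of microRNA members, 54.1% of transcribed pseudogene members and 46.3% of lncRNA members. At rRNA and pseudogene members it was 25.5% and 23.0%, and at snRNA members 10 of 40. On day 10 the order changed for snRNA members, of which 72.5% had a peak in both libraries, beside 84.9% of tRNA, 61.2% of lncRNA and 31.9% of rRNA members. Over all day 3 regions both libraries had a peak at 58.8% on day 0 and 70.3% on day 10. Members of a biotype can share a peak or a gene cluster, so these shares were not tested.

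**Figure D3:**
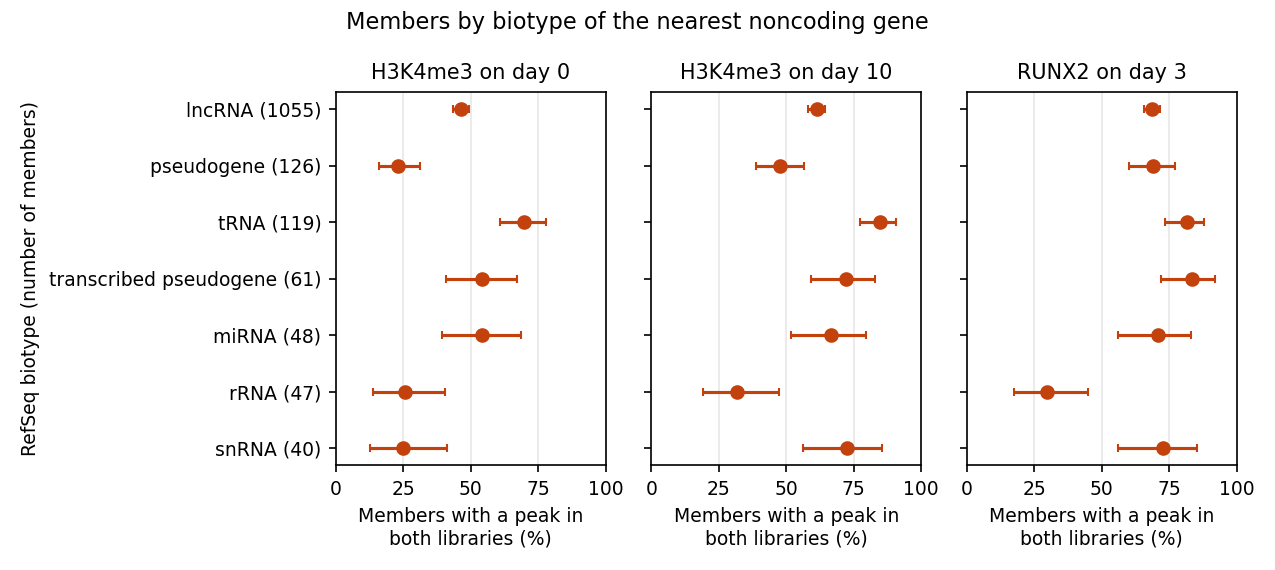
Share of members with a peak in both libraries of H3K4me3 on day 0, H3K4me3 on day 10 and RUNX2 on day 3 (x axis, percent, exact 95% intervals) for each biotype with at least 40 members (y axis, number of members in brackets). On day 0, tRNA members are highest at 69.7% and pseudogene members lowest at 23.0%, whereas on day 10 snRNA members reach 72.5%.

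The tRNA genes at members carried all 20 amino acid letters and 43 of the 48 anticodons in the table. On chromosome 13, 71 of 105 tRNA genes lay at members. The 43 members there with a tRNA gene as the nearest lay between positions 21159032 and 23526982. Over all chromosomes, up to 5 tRNA genes lay at 1 member. Cysteine was the exception among amino acids: 1 of 56 Cys tRNA genes lay at a member, against 193 of the 346 others, and 48 of the 56 lie on chromosome 6. The next lowest share was 36.4%, for serine. H3K4me3 had a peak at 86 and 99 of the 119 tRNA members on day 0 and at 101 and 116 on day 10, and RUNX2 at 100 and 107 on day 3. For H3K4me3 this was 72.3% and 83.2%, then 84.9% and 97.5%, and for RUNX2 84.0% and 89.9%. Over all day 3 regions H3K4me3 had 59.7% and 77.0% on day 0 and 70.3% and 94.965% on day 10. RUNX2 there had 78.8% in each library of day 3. The best-ranked tRNA member, at the isoleucine gene n-TIaat17 (chr17:83860948-83863150), had H3K4me3 fold enrichments of 6.75 and 9.96 on day 0, 37.5 and 15.1 on day 3, then 14.9 and 10.8 on day 10. These folds are the authors' values on each list's own scale, with list medians from 5.88 to 11.8 for H3K4me3, and show no order across days.

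All 47 rRNA members lay in the 5S rRNA gene cluster on chromosome 8, between 123538339 and 123622719. The 2 libraries of each day differed widely there. H3K4me3 peaks were present at 12 of the 47 in replicate 1 and 43 in replicate 2 on day 0, and at 15 and 44 on day 10. RUNX2 peaks on day 3 were present at 14 and 36. The H3K4me3 shares were 25.5% and 91.5% on day 0, beside 59.7% and 77.0% of all day 3 regions. On day 10 they were 31.9% and 93.6%, beside 70.3% and 94.965%. For RUNX2 they were 29.8% and 76.6%, beside 78.8% in each library. Leaving the rRNA genes out gave 1472 members, of which 46.4% had a peak in both day 0 libraries. Copies of 5S, tRNA and snRNA genes are nearly identical, and how reads matching several copies were placed is not given in the sources used here, so values at individual copies are uncertain.

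Of the 40 snRNA members, 10 and 25 had H3K4me3 on day 0 and 29 and 40 on day 10. Rnu1a1, a gene for the U1 RNA that recognises 5′ splice sites (chr11:87422085-87422859), had no peak and 5.58 on day 0, 28.3 and 10.5 on day 3, then 4.33 and 9.88 on day 10. Rnu3b3 and Rnu3b4, genes for the U3 RNA of ribosomal RNA processing, likewise had a day 0 peak in replicate 2 only. The best-ranked snRNA member, Gm23851, had a peak in all 4 lists and lies near a start of the protein-coding gene Cops7a.

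Of the lncRNA members with a start in the RefSeq table, 686 of 819 (83.8%) lay within 1 kb of a lncRNA start and 133 lay only at another end. Those at a start had H3K4me3 in both day 0 libraries at 51.7%, and those away from one at 30.1%. RUNX2 was in both day 3 libraries at 72.7% and 55.6% of them. Around 751 starts, a day 3 region covered the start base at 470, the base 500 after it at 429 and the base 500 before it at 347.

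**Figure D4:**
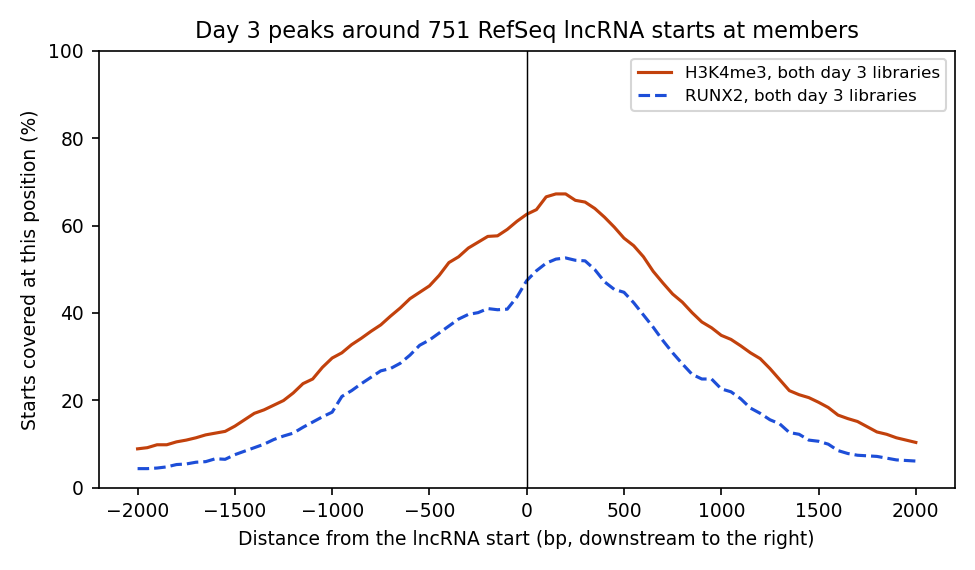
Share of 751 RefSeq lncRNA starts at members (y axis, percent) that were covered by peaks of both day 3 libraries of H3K4me3 (solid) or RUNX2 (dashed), by distance from the start in steps of 50 bp (x axis, downstream positive). Both curves are higher on the downstream than on the upstream side at 500 bp.

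Among the 10 lncRNA members with the best day 3 ranks, all had a peak in each of the 4 lists of days 0 and 10 and in both RUNX2 lists of day 3. In the strongest quartile of day 3 rank, 89.3% of members and 98.3% of regions at protein-coding ends had both day 0 libraries. RUNX2 was in both day 3 libraries at 95.2% and 99.5% of them. The best of the 10 was Gm39637 (chr1:45734197-45736029), with 3.70 and 15.5 on day 0, 39.4 and 18.8 on day 3, then 6.10 and 25.8 on day 10. Gm10777 had the highest replicate 1 value of the 10, at 51.3, beside 15.1 in replicate 2. Gm52861 gave 2 of the 10 members and its neighbour Gm52862 another, all on chromosome 6. Gm34655, Gm30189 and 5330439K02Rik lie within 1 kb of a protein-coding start, inside Ulk4, Gnas and Letmd1.

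The well-known lncRNA genes that lay at members mostly had H3K4me3 from day 0 on. Of 19 nuclear and widely expressed lncRNA genes, 13 lay at members, 2 (Tug1 and Crnde) at regions also near a protein-coding end, and 4 (Miat, Kcnq1ot1, Meg3 and H19) at no day 3 region. Within 1 kb of their ends, 12 of the 13 had a peak in both day 0 libraries, all 13 in both day 10 libraries and all 13 in both RUNX2 libraries of day 3. Over all 1542 genes at members the same counts were 839 (54.4%), 1092 (70.8%) and 1201 (77.9%). Malat1, an abundant RNA of nuclear speckles, had an 8108 bp region (chr19:5796797-5804904) with 9.51 and 10.1 on day 0, 29.0 and 11.3 on day 3, then 13.5 and 13.3 on day 10. Neat1, the scaffold of paraspeckles, had 7.89 and 9.96, then 22.9 and 8.99, then 11.4 and 8.91 at its wider region. Dancr, an lncRNA named for holding back differentiation, had 7.30 and 15.2, then 23.2 and 10.8, then 18.7 and 13.0. All 3 had peaks in each of the 6 H3K4me3 lists. The exception was Trp53cor1, the p53-induced lincRNA-p21 beside Cdkn1a, with no peak in replicate 1 and 3.77 in replicate 2 on day 0, 16.1 and 6.10 on day 3, then 4.42 and 7.18 on day 10.

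Of 21 genes on the list of snoRNA hosts, which carry small nucleolar RNAs in their introns, 10 lay at members: Snhg3, Snhg4, Snhg5, Snhg7, Snhg8, Snhg12, Snhg15, Snhg16, Snhg17 and Snhg20. All 11 of their regions had H3K4me3 in the 4 lists of days 0 and 10 and RUNX2 in both libraries of day 3, beside 57.5% and 74.6% of all day 3 regions. Another 9 lay at regions also near a protein-coding end, among them Gas5, Zfas1 and Bc1, a neuronal RNA gene that is on the list but is not a snoRNA host, and Snhg11 and Snhg14 at none. Snhg17 had 8.27 and 10.8 on day 0, 30.9 and 8.86 on day 3, then 14.2 and 11.6 on day 10. Snhg4 had the lowest day 0 value of replicate 1 among the 10 at its region, 3.19, and 7.97 in replicate 2, but was still present in each list.

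Of 23 genes on the list of microRNA hosts, 5 (21.7%) lay at members, beside 7.60% of lncRNA genes. They were Dnm3os, Mir22hg, Carmn, Dleu2 and Mir670hg. With peaks within 1 kb of a gene's ends counted, all but Mir670hg had H3K4me3 in both libraries of days 0 and 10 and RUNX2 in both libraries of day 3. Of their 12 regions, 7 had a peak in both day 0 libraries and 4 in neither, beside 58.8% and 22.2% of all day 3 regions. Mir670hg had no day 0 peak at its 2 short regions (67 and 33 bp), with 5.23 and 6.75, and 4.17 and 6.75, on day 3. The other 18 had no day 3 region at an end, among them Mir17hg, Mir99ahg, Mir100hg and H19. This counts the ends of RefSeq spans only. The span of Mir17hg begins at 115044390, beyond Mir17, which begins at 115043671. The member near Mir17 (chr14:115041907-115042824) had H3K4me3 in both libraries of days 0 and 10 and RUNX2 in both libraries of day 3. Mir125b-1, at a member described below, lies inside the span of Mir100hg. The 18 include 3 entries that are microRNA genes and not hosts, Mir142, Mir290a and Mir133b. Carmn, the host of the miR-143 and miR-145 genes, had 6.31 and 7.77 on day 0 and 21.4 and 11.6 on day 3 at its main region, and RUNX2 at 5.94 and 12.7.

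Of 99 microRNA genes known in cartilage, bone or mesenchymal cells, 20 (20.2%) lay at 19 members, beside 4.97% of all microRNA genes. Another 7, among them Mir21a and Mir10a, lay at regions near a protein-coding end. The other 72 (72.7%), among them Mir455, Mir23a, Mir29a, Mir143 and Mir221, lay at no day 3 region, as did 85.7% of all microRNA genes. Of the 19 regions, 13 had a peak in both day 0 libraries, 2 in neither, 17 in both day 10 libraries and 16 had RUNX2 in both libraries of day 3. In the same order, 58.8%, 22.2%, 70.3% and 74.6% of all day 3 regions did. Of 47 microRNA genes of other cell types, such as muscle, neurons, blood and embryonic stem cells, 1 lay at a member. This was Mir203, an epithelial microRNA gene (chr12:112130185-112130967), with no peak and 4.35 on day 0, 9.98 and 9.94 on day 3, then 6.27 and 11.7 on day 10. These lists were drawn up with earlier results known and were not tested against each other.

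Mir140 (chr8:107551244-107551313), whose miR-140-3p sequence is printed above, lies inside Wwp2, and the H3K4me3 next to it extended differently in the 6 lists. The left edges of the peaks in 5 of them lay between positions 107545050 and 107545097, and that of day 3 replicate 1 at 107543164. On day 0 the peaks ended 3022 and 2799 bp short of Mir140. On day 3 both peaks ran over it, to 107553588 and 107551769. On day 10 replicate 1 ended 1310 bp short and replicate 2 ran over it. The region had H3K4me3 folds of 8.94 and 8.65 on day 0, 21.9 and 12.6 on day 3, then 8.38 and 7.89 on day 10. RUNX2 peaks on day 3, with folds of 3.34 and 13.4, ended 3038 and 2284 bp short. A peak's extent also depends on the depth of its library, whose part in these differences was not tested.

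Dnm3os, antisense within Dnm3 and the precursor of miR-199a and miR-214, showed a similar range of extents. On day 0 the peak at its start (chr1:162217632-162223398 on day 3) was 1387 bp wide in replicate 1 and 5013 bp in replicate 2. On day 3 it was 8146 and 5767 bp, and on day 10 it was 2868 bp in replicate 1, with 6661 bp summed over 2 peaks in replicate 2. Mir199a-2 was covered in all 6 lists, whereas Mir214, near the far edge, was reached by the day 3 peaks alone. Day 0 replicate 2 stopped 726 bp and day 10 replicate 2 stopped 440 bp before Mir214, so the difference between these 2 lists was smaller than that between the replicates of a day. RUNX2 covered 2582 and 5226 bp of the same domain.

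**Figure D5:**
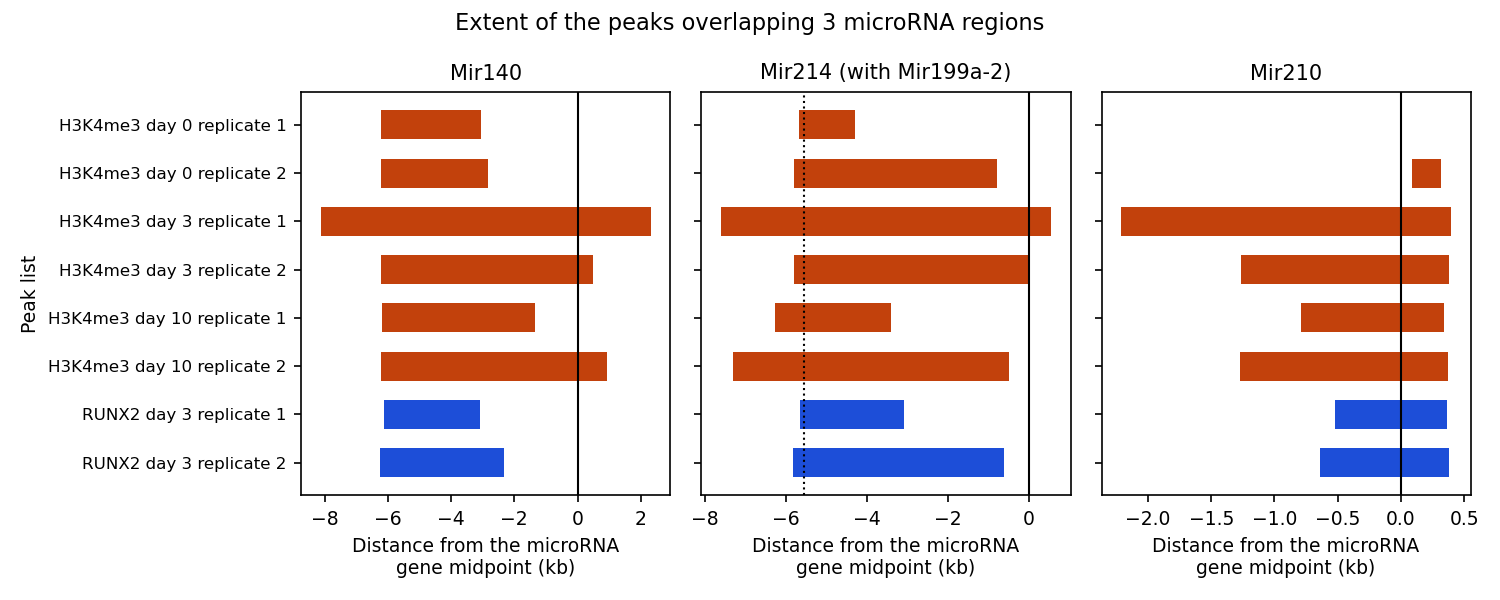
Extent of the peaks that overlap the Mir140, Mir214 and Mir210 regions (bars, first to last base of the overlapping peaks; x axis, kb from the midpoint of the microRNA gene, which the solid line marks; y axis, list), H3K4me3 in orange and RUNX2 in blue. The dotted line marks Mir199a-2. At Mir140 and Mir214 both day 3 H3K4me3 peaks reach the microRNA, and both day 0 peaks end before it.

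The remaining miR-199 copies and Mir210 had a day 0 peak in replicate 2 only. At Mir199a-1, inside Dnm2, the H3K4me3 values were 5.61 in that library, 11.5 and 9.38 on day 3, then 3.57 and 5.80 on day 10. At Mir199b, inside Dnm1, they were 5.53, then 24.7 and 11.3, then 9.16 and 9.32. Mir210, a hypoxia-induced microRNA gene, had a 228 bp peak on day 0 whose near edge lay 33 bp from the gene, 14.7 and 9.31 on day 3, then 12.3 and 13.4 on day 10. RUNX2 was present in both libraries at all 3, with 7.83 and 12.2 at Mir210. These 3 regions had a peak in each library of days 3 and 10.

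The other paired seeds lay at regions present in all 4 lists. Mir193a (chr11:79710971-79712943) had 7.40 and 10.1 on day 0, 23.8 and 11.0 on day 3, then 15.9 and 9.48 on day 10. Mir193b had 7.84 and 10.1, then 21.9 and 13.4, then 17.8 and 12.8. Mir132 and Mir212 share a 935 bp region, with 7.40 and 8.18, then 24.7 and 9.51, then 7.71 and 8.11. Mir34b and Mir34c, targets of p53, share an 1114 bp region that lies 1102 bp from an end of Btg4, with 2.70 and 7.61, then 25.2 and 13.1, then 11.1 and 11.8. The day 0 value of replicate 1 there was the lowest of that list among the microRNA regions named here. Mirlet7i and Mir125b-1 lie in domains of 6072 and 10499 bp, also present in each list.

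Of 32 antisense and divergent lncRNA genes of HOX and other developmental loci, 8 lay at members and 13 at regions also near a protein-coding end. None of their 11 regions had a peak in both day 0 libraries, 5 had none in either, 4 had one in both day 10 libraries and 5 had RUNX2 in both day 3 libraries. The shares of all day 3 regions were 58.8%, 22.2%, 70.3% and 74.6%, in the same order. Hotair, of the HOXC cluster (chr15:102942872-102943537), had a day 0 peak in replicate 2 (5.98), 24.1 and 10.1 on day 3, 10.4 and 9.51 on day 10, and RUNX2 at 7.76 and 10.2. Haglr, antisense within the HOXD cluster, had no day 0 peak, 9.98 and 7.37 on day 3, 4.58 and 10.3 on day 10, and RUNX2 at 4.25 and 4.99. Hottip, at the 5′ end of the HOXA cluster, had 4.12 and 5.24 on day 3 and no peak in any other list. Hoxb3os had a day 0 peak in replicate 1 only, and Dlx1as in replicate 2 only, each with RUNX2 in both libraries. The regions of Hotair, Haglr, Hottip and Hoxb3os covered no end of their gene. They lay 525, 889, 968 and 621 bp from the nearest end, in that order. Either end of a gene counted, so these values need not belong to the start of the lncRNA. Six3os1 and Sox1ot, beside neural genes, had values of 3.97 to 8.19 on day 3 and no RUNX2. With peaks within 1 kb of a gene's ends counted in place of those at the region, Hoxb3os and Dlx1as had H3K4me3 in both day 0 libraries, whereas Haglr had it in 1 day 10 library and had no RUNX2.

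Of 15 imprinted and X inactivation noncoding genes, 3 (Jpx, Ftx and Igf2os) lay at members, beside 5.50% of all noncoding genes. The other 12, among them Xist, Tsix, Meg3, H19 and Airn, lay at no day 3 region, as did 87.9% of all noncoding genes. Jpx and Ftx, neighbours of Xist and known activators of it, had peaks in all 6 lists, with 3.81 and 9.31 on day 0, 18.0 and 10.9 on day 3, then 8.66 and 11.8 on day 10 at the region over the Jpx end. Ftx had 4.70 and 8.76, then 15.9 and 11.2, then 10.4 and 9.48. The 3 Igf2os regions had no RUNX2, and each lies within 1 kb of a start of Igf2.

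Small noncoding RNA genes that form part of a particle lay at members for 6 of 13. All 6 had H3K4me3 in both day 10 libraries and RUNX2 in both day 3 libraries, beside 70.3% and 74.6% of all day 3 regions. Rn7sk, whose RNA holds the elongation factor P-TEFb inactive (chr9:78175545-78177174), had 6.93 and 7.31 on day 0, 37.1 and 9.45 on day 3, then 17.6 and 10.5 on day 10. Rn7s2, the RNA of the signal recognition particle, Terc, the template of telomerase, and the Y RNA gene Rny1 were also present in both day 0 libraries. Vaultrc5, the vault RNA gene, and Rny3 had a day 0 peak in replicate 2 only, at 4.84 and 8.14.

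Of the 434 members with no day 0 peak, 84 had a peak in both day 10 libraries (5.54% of all members, beside 3.62% of all regions). Another 273 had one in replicate 2 of day 10 alone (18.0%, beside 14.4%), and 77 in neither (5.08%, beside 4.13%). The 434 had a median width of 312 bp and the 693 with both day 0 libraries 1514 bp. The numbers rest on the depth of the lists: without replicate 2 of day 0 the count without a day 0 peak was 802, without replicate 2 of day 3 it was 986, and with each list held to the same number of strongest peaks it was 95. The 77 became 350 without replicate 2 of day 10, 488 without replicate 2 of day 3, 233 without replicate 1 of day 3, and 34 when a peak within 1 kb of the region counted. Among the 434 is the 313 bp Dancr region, which has a peak in both day 10 libraries. It ends at 74092863, and the day 0 peaks of Dancr begin next to it, at 74092932 and 74093038. The 1517 members came from 1347 peaks of day 3 replicate 1 and 1494 of replicate 2, so 1 peak can give several members. With peaks within 1 kb of a gene's ends counted, 320 of the 1542 genes at members (20.8%) had no day 0 peak. By that count, 41 genes had H3K4me3 on day 3 only.

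The best-ranked member without a day 0 peak was Gm31546 (chr8:126595444-126596279), 1458 bp from the protein-coding gene Irf2bp2, with 30.4 and 7.54 on day 3 and a single day 10 value of 11.5 in replicate 2. Of the best 10, 7 had a peak in both day 10 libraries. These were at the lncRNA genes Gm7628, Gm13031, Gm39782, Gm52693, Gm32652 and LOC115487230 and at the arginine tRNA gene n-TRccg1. Gm13031 had 22.2 and 9.80 on day 3, then 5.77 and 8.21 on day 10. Gm32652 had 23.6 and 7.54, then 8.92 and 9.72. LOC115487230 had 11.5 and 11.1, then 6.76 and 10.7. RUNX2 was in both day 3 libraries at Gm13031, Gm52693, Gm32652 and LOC115487230. The other 2, in the 5S cluster, had no peak on day 10.

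RUNX2 peaks on day 3 overlapped 1145 members (75.5%) in replicate 1 and 1134 (74.8%) in replicate 2, and 1048 (69.1%, 66.7 to 71.4%) in both, beside 74.6% of all day 3 regions. In neither, 286 (18.9%) had one, beside 17.0%. On day 0, RUNX2 peaks lay at 3 members in each library (0.198%), beside 0.300% of all regions with a peak in either, and on day 10 at 1 and 2 members, beside 0.262%. These were the microRNA gene Mir101c on chromosome 9 and regions at Rn18s-rs5 and AY036118 on chromosome 17. The mean share was 75.1% ± 0.513 (SD, n = 2) on day 3, 0.198% ± 0.0 on day 0 and 0.0989% ± 0.0466 on day 10. Both differences, 74.9 and 75.0 points, exceeded the spread between libraries. Both two-sided exact permutation tests gave p = 0.333, the smallest possible (adjusted p = 0.5). The RUNX2 lists of days 0 and 10 held 97 to 108 peaks each, against 19319 and 16859 on day 3. Lists this short can overlap only a small share of 1517 members, so the size of both differences followed from list length. Over all day 3 regions the RUNX2 share was 78.8% in each day 3 library, so the contrast is not particular to members.

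RUNX2 on day 3 and H3K4me3 on day 0 went together across members. RUNX2 was in both libraries at 667 of the 693 members with both day 0 libraries (96.2%), at 259 of the 390 with 1 (66.4%) and at 122 of the 434 with none (28.1%). At the 652 members present in all 4 lists it was 643 (98.6%), and at the 77 of day 3 alone it was 6 (7.79%). The day 3 fold medians of these groups differ as well, from 22.7 in replicate 1 with both day 0 libraries to 9.03 with none. Median widths were 1514, 667.5 and 312 bp with both, 1 and no day 0 library. For day 3 alone the median width was 218 bp. An overlap of 1 bp counted as presence, and the part of enrichment and width in the relation was not tested. Over all day 3 regions RUNX2 was in both libraries at 74.6%, and their split by day 0 is not given here. Within the quartiles of day 3 rank, RUNX2 was in both libraries at 95.2, 91.3, 74.6 and 34.1% of members from the strongest to the weakest. At protein-coding ends it was 99.5, 96.9, 84.5 and 42.5%. By biotype, RUNX2 was in both libraries at 83.6% of transcribed pseudogene, 81.5% of tRNA, 72.5% of snRNA, 70.8% of microRNA, 69.0% of pseudogene, 68.6% of lncRNA and 29.8% of rRNA members.

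The 10 members with the best RUNX2 ranks were led by 5830454E08Rik (chr9:120576920-120578026), with RUNX2 at 11.0 and 18.8, followed by Gm46766 at 11.9 and 16.8 and Gm10244 at 10.2 and 19.3. Gm38632, inside Hivep3, whose promoter is printed above, had 9.54 and 17.1 and was also among the 10 lncRNA members best ranked for H3K4me3. Of the 10, 8 were at lncRNA genes, Gm8116 at a pseudogene and Gm14419 at a misc_RNA gene. All but Gm8116 had H3K4me3 in both day 0 libraries. Gm46766, Gm10244, Gm31939 and Gm35657 lie within 1 kb of a protein-coding start.

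The share of promoters with RUNX core letters was close to that of all promoters. Of 752 lncRNA promoters at members, 175 (23.3%) held TGTGGT or TGCGGT on either strand. The share was 24.0% of all lncRNA promoters, 21.6% of protein-coding promoters and 22.4% of all 32850 promoters of the same 300 bp. Taken singly, TGTGGT was in 16.2% of those at members, 20.0% of all lncRNA promoters and 16.8% of all promoters. TGCGGT was in 7.98%, 4.65% and 6.45%, in the same order. Either form was in 22.7% of 604 promoters at a member with RUNX2 in both libraries. It was in 26.9% of 78 at members with RUNX2 in neither. The RUNX2 peak overlapped a member within 1 kb of the start and need not touch the window. RUNX2 peaks of both libraries covered the start base itself at 356 of 751 starts. In the printed windows, the letters begin 183 bases before the start of Dancr, 11 before that of Snhg5, 245 before that of Gm38632 and 210 before that of Gm7628. They begin at base 18 after the start in Mir22hg and, as a further match, in Gm7628, and the windows of Dnm3os, Gm39782 and Six3os1 hold none. Base composition differed more: the median observed-to-expected ratio of CpG was 0.485 at members, 0.245 over all lncRNA promoters and 0.567 over protein-coding promoters. It was 0.621 where a member within 1 kb of the start had both day 0 libraries, and 0.328 where none had a day 0 peak. These are descriptions, and a window without a match says nothing about the factor.

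The label of noncoding ends did not keep all members apart from protein-coding starts. In all, 486 members (32.0%) lay inside the span of a protein-coding gene, and 188 (12.4%) lay within 1 kb of a RefSeq protein-coding start inside such a span. Those 188 had H3K4me3 in both day 0 libraries at 77.7% and RUNX2 in both day 3 libraries at 88.8%, near the values of protein-coding ends. The other 1329 had 41.2% and 66.3%. The median distance of a member to the nearest protein-coding end was 13769 bp, and 245 members lay at 2 or more noncoding genes.

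At the limit of the rule, Mir3109 at 1000 bp and the lncRNA gene Gm14488 at 999 bp were just inside, with day 3 values of 24.3 and 3.10, and 24.1 and 10.4. A930015D03Rik at 1001 bp and Gm38415 at 1002 bp were just outside, with 12.7 and 3.51, and 15.7 and 12.6. On the protein-coding side, Gm26802 was a member at 1011 bp from Fosb. In all, 42 members lay over 900 and up to 1000 bp from their noncoding end, and 44 regions lay over 1000 and up to 1100 bp from one. On the other side, 27 members lay over 1000 and up to 1100 bp from a protein-coding end. Another 2108 regions near a protein-coding end also lay within 1 kb of a noncoding end.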

How the data were processed

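Chromatin immunoprecipitation with sequencing was compared in 12 libraries, 2 for each antibody and day. The tools in the submitters' processing notes are MACS2, HISAT2 2.2.0, Trim Galore and FastQC, and the labels give reads of 75 bp. Their settings, the treatment of duplicate and multiply placed reads and any control for peak calling are not given in those sources. Each deposited list is named for 1 library, so peaks were called per library. The deposited lists hold, by the column order of the narrowPeak format, each peak's position, a score (not used here), the fold enrichment as a linear ratio, and −log10 values of p and q. These values of the authors, fold and −log10 q, served to describe, rank and filter peaks inside single lists. A region took the highest fold of the whole peaks overlapping it in a list. The notes name GRCm39, but the deposited coordinates fit RefSeq GRCm38 genes, and all positions are given in GRCm38, counted from 1.

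Overlapping peaks of a list were merged. A region was called present in a list at an overlap of at least 1 bp, and RefSeq gene spans gave the ends. Shares carry exact Clopper-Pearson 95% intervals. Shares over libraries were compared with two-sided exact permutation tests, Benjamini-Hochberg adjusted over 3 tests, whose smallest p is 0.333. A fit over all features was not made, since the lists hold no counts. The interval code was tested on simulated data. Alternatives covered the window, the peak threshold, equal numbers of peaks, the overlap, pseudogenes and leaving out each library. Python 3.11.15, NumPy 2.4.6, pandas 2.3.3, SciPy 1.17.1 and matplotlib 3.10.9 were used.

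The members and the 8 gene lists were chosen with earlier results of these data known, and the lists were written from general knowledge. Genes were named by rule: list genes at members, the 10 best lncRNA and 5 best members of other biotypes by mean day 3 fold rank, the 10 best without a day 0 peak, the 10 best by RUNX2 rank, the 5 widest, and those at the rule's limit. Mir101c, Rn18s-rs5, AY036118, the Cys tRNA genes and the list entries that are not host genes were named after their values were seen.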

Additional observations from a re-analysis of the deposited data

How the results depend on the processing

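No result with a test changed direction or passed 0.05 under any alternative run. With equal numbers of strongest peaks per list there were 835 members, the share in both libraries was 68.6% on day 0 and 91.9% for RUNX2 on day 3, and 95 members lacked a day 0 peak, 12 of them also a day 10 peak. The number present on day 3 alone was 48 with ends within 500 bp, 44 at a −log10 q of at least 5 and, chosen after seeing the data, 34 with a peak within 1 kb counted. The RUNX2 share in both libraries, whose replicates differ little, was 74.7% at 500 bp, 63.8% at 2500 bp, 71.0% by midpoint, 73.7% at the stricter q, 62.2% with at least 50% overlap and 68.5% without pseudogenes. In alternatives chosen after seeing the data it was 66.3% without members near a protein-coding start, 70.3% without rRNA genes and 77.3% with a peak within 1 kb counted.

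Leaving out 1 library at a time gave 1717 to 1985 members, day 0 shares of 31.9 to 69.9%, day 10 shares of 44.5 to 94.0%, 456 to 986 members without a day 0 peak, 77 to 488 present on day 3 alone, and RUNX2 shares of 50.2 to 75.5%. The day 10 minus day 0 difference ranged from 3.30 to 35.5 points, and the RUNX2 differences from 74.6 to 75.3 points against day 0 and from 74.7 to 75.4 points against day 10. With the replicate number as a block, the differences were 19.4, 74.9 and 75.0 points, each with an exact sign permutation p of 0.5, the smallest 2 pairs allow. The labels share only a number, so the block is no pairing by design.

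With 2 libraries a group no comparison can pass 0.05. Read depth is unknown, so a region missing from a short list and one missed in it cannot be told apart.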

Other observations

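The widest members stood differently in the 2 RUNX2 libraries of day 3. At the 5 widest, the lncRNA genes Gm49890, Gm51670 (with Mir125b-1), Malat1 and Chaserr and the microRNA gene Mir140, the RUNX2 fold enrichment was 2.10 to 3.34 in replicate 1, where the list's median was 6.25. In replicate 2 it was 8.26 to 13.4, where the median was 10.1. All 5 lay below the median of the first list. Gm49890, on chromosome 4, had the widest region of the members, at 14770 bp, with H3K4me3 folds of 4.82 and 12.3 on day 0, 23.3 and 9.90 on day 3, then 10.7 and 9.32 on day 10.

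Of the 5 best-ranked snoRNA members, 3 lie inside ribosomal protein or nucleolar genes. Snord15a, inside Rps3, and LOC115487308, inside Ppan, had regions of 187 and 215 bp. The whole peaks overlapping these short regions had day 3 folds of 29.7 and 3.61, and 27.7 and 3.73. With peaks within 1 kb of a gene's ends counted, 24 of 29 snoRNA genes at members had H3K4me3 in both day 0 libraries, beside 54.4% of all genes at members. Of the 6 regions with a snoRNA gene as the nearest, 2 had it in both and 3 in neither.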
